A study of Mus musculus with 6 samples.

Results

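Cytosolic ribosomal protein genes were followed in primary mouse embryonic fibroblasts (MEFs, fibroblasts cultured from mouse embryos) after 24 h with erastin. The genes were chosen by name: protein-coding genes of the GENCODE M21 mouse annotation whose symbols begin with Rpl or Rps followed by a digit or a p, without S6 kinase genes and without genes named as copies. Of the 43346 rows of the deposited table, 85 met the rule, 52 with large-subunit symbols (Rpl) and 33 with small-subunit symbols (Rps). The rule reads names only and uses no measured value. It takes in Rps19bp1, whose product binds a ribosomal protein and is not itself one, and it misses ribosomal protein genes with other symbols, of which Rpsa, Rack1 and Fau are described apart.

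Both groups were C57BL/6 cells at passage 9. One group had received the solvent DMSO and the other 3 µM erastin, a blocker of cystine uptake that is used to set off ferroptosis, in which cells die from iron-dependent oxidation of their membrane lipids. Each group had 3 libraries, made from total RNA depleted of ribosomal RNA, and the reads were counted per gene. The culture medium of all cells contained 2-mercaptoethanol, a reducing agent. The series text says that the experiment was done in triplicate. It does not say whether the 3 libraries of a group came from separate embryo preparations, so the p-values measure the spread between these libraries, which may be technical.

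The cytosolic ribosome is built from a large and a small subunit, each an assembly of ribosomal RNA and of many small basic proteins made in nearly equal numbers. Vertebrate ribosomal protein mRNAs mostly begin with a C followed by an uninterrupted run of pyrimidines, the 5′ terminal oligopyrimidine (TOP) motif. Through it their translation, and by way of the binding protein LARP1 also their stability, follow mTOR signalling. In growing fibroblasts these mRNAs are among the most abundant in the cell, and free ribosomal proteins that do not find a ribosome are usually degraded.

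Total counts ran from 13333911 to 20509970 per library, and 3 counts corresponded to 0.14 to 0.234 CPM (counts scaled to a common library size with TMM factors, as in edgeR). The 4 most counted genes were Gm42418, Mir6236, Lars2 and Gm26917. All 10 listed fibroblast markers reached 1 CPM. Their summed level was 35433 to 38496 CPM in DMSO and 25455 to 26901 CPM in erastin libraries, so this sum moved with the treatment, and its part in the results was not tested. Of 6 epithelial markers only Krt18 reached 1 CPM, and Dazl, one of 3 germ cell markers, was at 0 in every library. The 4 blood cell markers all reached 1 CPM, at a summed 17.9 to 32.4 CPM in DMSO and 21.9 to 48.6 CPM in erastin libraries. Sums over 3 other lists did not overlap between the groups. The 3 neural markers, of which only Tubb3 reached 1 CPM, summed to 56.3 to 81.7 CPM in DMSO and 37.0 to 45.5 CPM in erastin libraries. The 3 endothelial markers, of which only Kdr reached 1 CPM, summed to 2.16 to 4.76 CPM with DMSO and 7.60 to 9.85 CPM with erastin. The germ cell markers stayed under 0.5 CPM in sum. The part of these markers in the results was not tested. In such bulk RNA, a lower level per cell and fewer cells of a type cannot be told apart.

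Of the 85 genes that met the naming rule (the members), 83 passed the filter on low counts and were tested. With erastin 39 of them fell and 2 rose (edgeR quasi-likelihood test, Benjamini-Hochberg adjusted p under 0.05 over 14000 genes). The 39 make 47.0% of the tested members, where 21.5% of all tested genes passed in the lower direction and 21.6% in the higher. The median log2 fold change of the 83 was -0.20, beside -0.0014 for all tested genes. Values lay below 0 for 71 members and above 0 for 12. In 44 members every erastin library lay below every DMSO library, in 2 every erastin library lay above, and in 37 the groups overlapped. Over all tested genes 25.9% had no overlap in the lower direction and 26.7% in the higher. Falls occurred under both kinds of symbol. Of 50 large-subunit members 22 fell and 0 rose, at a median of -0.19 (log2). Of 33 members with small-subunit symbols 17 fell and 2 rose, with a median of -0.24. The 2 that rose were Rps19bp1, whose product is not a ribosomal protein, and Rps27rt, a copy of Rps27 with the same coding sequence. For the 0 large-subunit members that rose, edgeR gave 1, Rpl7l1, at an unadjusted p under 0.05, and DESeq2 gave 0 after adjustment. The count of members that fell depended on 1 library and on an offset that treats GC content and transcript length together. Without erastin replicate 1 it was 24, with 16.8% of all genes lower. With an offset for GC content and for the length of the coding transcript it was 21 of 83, or 25.3%, beside 21.4% of all genes under the same offset.

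**Figure D1:**
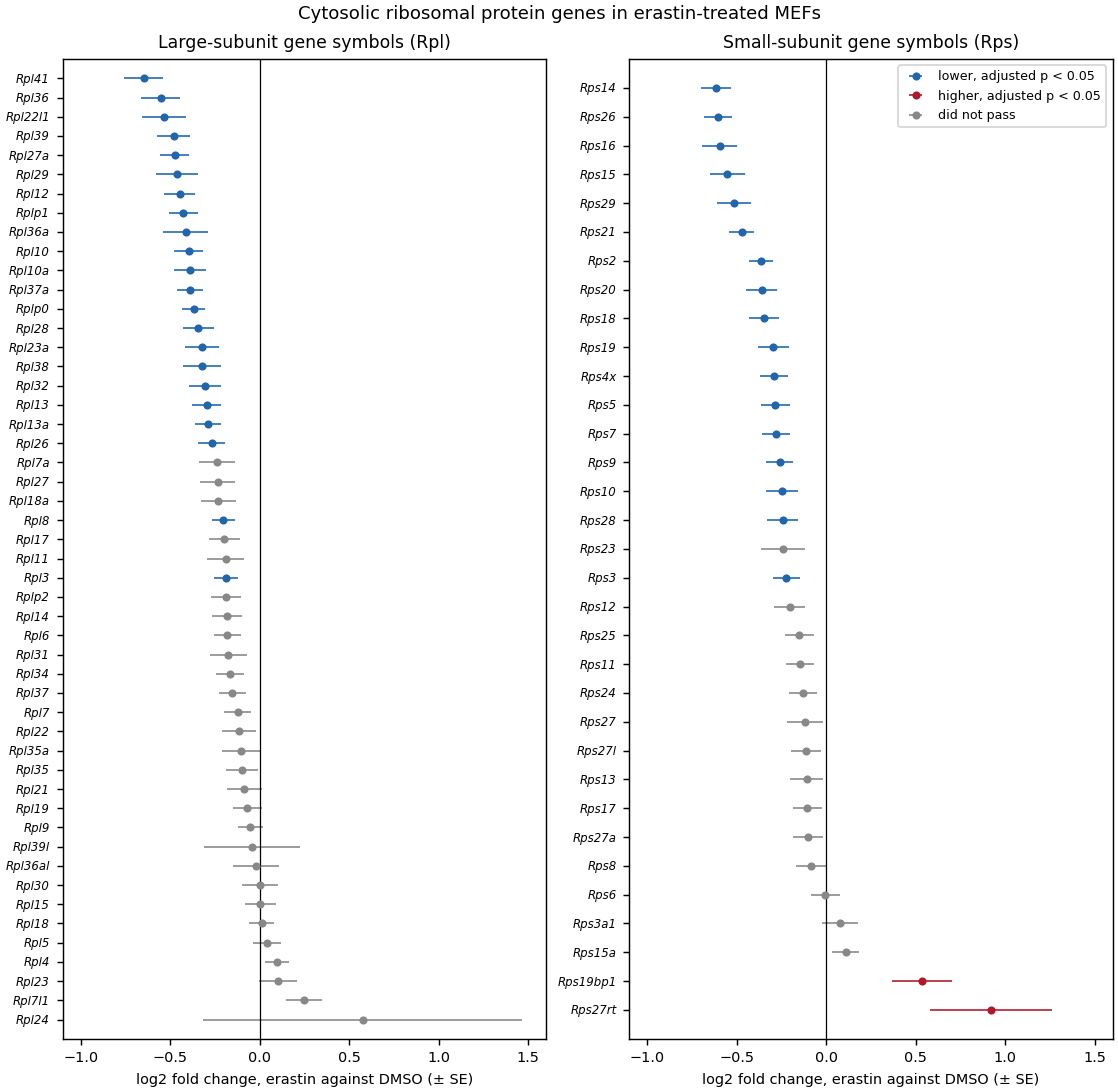
The log2 fold change of each tested member, erastin against DMSO (x axis, bars ± SE), is drawn for large-subunit symbols on the left and small-subunit symbols on the right, ordered by value. Blue points passed in the lower direction (22 and 17 genes), red points in the higher direction (0 and 2), and grey points did not pass.

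Summed over all 85 genes, the counts made 2.21%, 2.10% and 2.06% of the library in DMSO replicates 1, 2 and 3. In erastin replicates 1, 2 and 3 they made 1.82%, 1.86% and 1.95%. The group means were 2.12% ± 0.0767 and 1.88% ± 0.0664 (SD, n = 3 per group), a ratio of 0.886, and the groups did not overlap. For large-subunit members the shares were 1.23% ± 0.0362 with DMSO and 1.10% ± 0.0376 with erastin (SD, n = 3 per group). For small-subunit members they were 0.892% ± 0.0429 and 0.776% ± 0.0293 (SD, n = 3 per group). The erastin libraries were not equally low. The median log2 level of the tested members, relative to the mean of the DMSO libraries, was -0.29 in erastin replicate 1, -0.19 in replicate 2 and -0.17 in replicate 3. In the DMSO libraries the same median lay between -0.024 and 0.031.

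**Figure D2:**
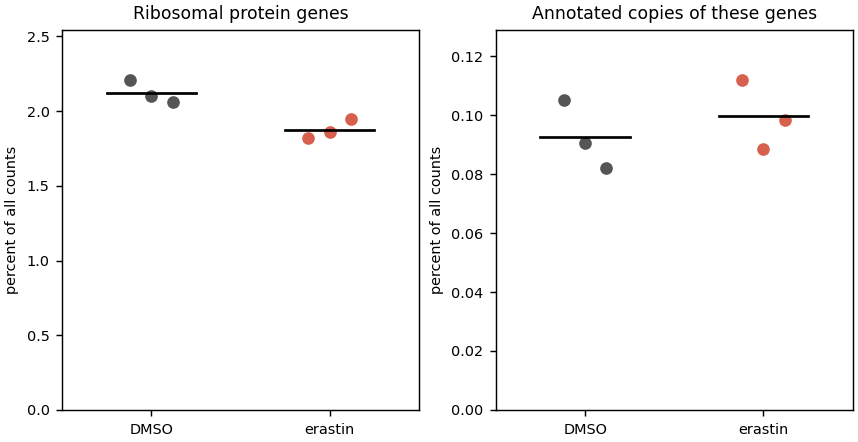
The percent of all counts that fell on the 85 members (left) and on annotated copies of them elsewhere in the genome (right) is shown for each library as a point, with the group mean as a line and the y axis from 0. The erastin libraries lie between 1.82% and 1.95% on the left, below all DMSO libraries, and the groups overlap on the right.

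The 6 members with the largest significant falls were Rpl41, Rps14, Rps26, Rps16, Rpl36 and Rps15, and in each of them the groups did not overlap. Rpl41, which encodes the shortest ribosomal protein, a basic peptide at the interface of the subunits, had 230.6, 230.8 and 258.7 CPM in the DMSO libraries and 121.9, 171.5 and 166.2 CPM in the erastin libraries. Its log2 fold change was -0.65 ± 0.11 (SE; edgeR adjusted p = 0.000237), and the level fell by 36.2%. Erastin replicate 1 was the lowest of the 6 libraries.

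Rps14 and Rps26 encode neighbouring proteins on the side of the small subunit where mRNA leaves. Rps14 had 470.0, 406.5 and 494.7 CPM in DMSO and 284.0, 317.2 and 293.6 CPM in erastin libraries. This gave a log2 fold change of -0.62 ± 0.08 (SE; edgeR adjusted p = 2.52e-05). Rps26, whose protein contacts the mRNA upstream of the start codon, had 303.8, 304.9 and 339.5 CPM in DMSO and 198.0, 226.1 and 199.6 CPM in erastin libraries. Its log2 fold change was -0.60 ± 0.08 (SE; edgeR adjusted p = 2.17e-05). In both genes all 3 erastin libraries sat well below the lowest DMSO library.

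Rps16 encodes a protein of the small-subunit head whose tail reaches the peptidyl-tRNA. It had 149.1, 161.5 and 154.0 CPM in DMSO and 87.2, 115.4 and 105.7 CPM in erastin libraries, with a log2 fold change of -0.59 ± 0.10 (SE; edgeR adjusted p = 0.000181). Rps15, a head protein near the decoding centre, had 356.6, 344.3 and 433.6 CPM in DMSO and 234.1, 289.5 and 250.2 CPM in erastin libraries. The log2 fold change was -0.55 ± 0.10 (SE; edgeR adjusted p = 0.000337). Rpl36, a large-subunit protein, had 48.6, 51.8 and 60.6 CPM in DMSO and 33.7, 38.0 and 38.0 CPM in erastin libraries, with a log2 fold change of -0.55 ± 0.11 (SE; edgeR adjusted p = 0.000816). Rps15 and Rpl36 have GC-rich transcripts, at 62.4% and 60.8% of the coding transcript. Under the offset for GC and coding length their log2 fold changes were -0.18 (edgeR adjusted p = 0.186) and -0.10 (adjusted p = 0.536), and the calls were lost. The other 4 kept their calls under every alternative fit.

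**Figure D3:**
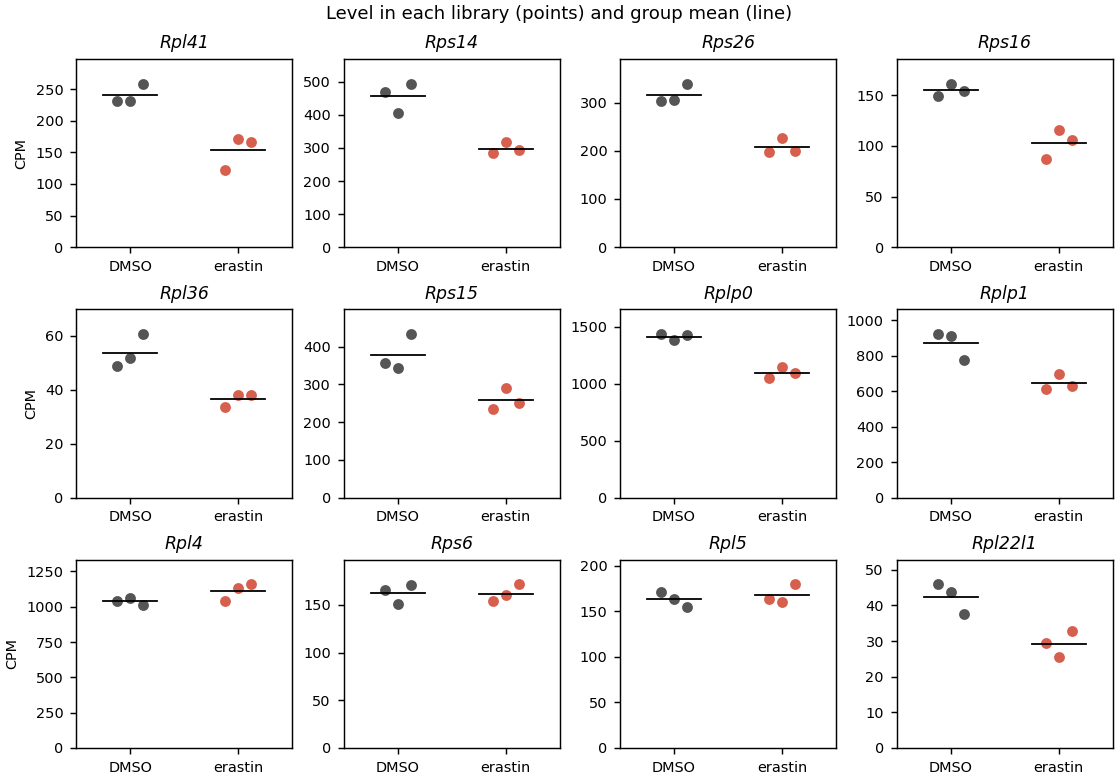
Levels in CPM (y axis from 0) of 12 members are shown in each DMSO library (grey points) and erastin library (red points), with lines at the group means. In Rpl41, Rps14, Rps26, Rps16, Rpl36, Rps15, Rplp0, Rplp1 and Rpl22l1 all erastin libraries lie below all DMSO libraries, while in Rpl4, Rps6 and Rpl5 the groups overlap.

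The stalk of the large subunit, made of the proteins P0, P1 and P2, recruits the elongation factors that drive translocation. Rplp1 and Rplp0 have, with Rpl4, the highest levels per transcript length among the members: Rplp1 had 1743 CPM per kb of its longest transcript in DMSO, Rplp0 1042 and Rpl4 676. Rplp0 had 1438, 1384 and 1425 CPM in DMSO and 1050, 1144 and 1095 CPM in erastin libraries. The groups did not overlap, and the log2 fold change was -0.37 ± 0.06 (SE; edgeR adjusted p = 0.000285). Rplp1 had 922.6, 913.7 and 773.6 CPM in DMSO and 611.2, 699.6 and 630.7 CPM in erastin libraries. Here too the groups did not overlap. Its log2 fold change was -0.43 ± 0.08 (SE; edgeR adjusted p = 0.000627), but with the offset for GC and coding length its value was -0.13 (adjusted p = 0.147). Rplp2 had 270.7, 252.9 and 234.0 CPM in DMSO and 209.9, 212.0 and 243.8 CPM in erastin libraries, where the groups overlapped. This gave a log2 fold change of -0.19 ± 0.08 (SE; edgeR adjusted p = 0.0831) and did not pass, although it passed with upper-quartile scaling and without DMSO replicate 3 or erastin replicate 3 (adjusted p = 0.0299, 0.0341 and 0.0233 in edgeR).

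Rpl5 and Rpl11 encode the proteins that carry 5S ribosomal RNA into the large subunit and that, when ribosome assembly fails, bind MDM2, the ubiquitin ligase of p53. Neither passed. Rpl5 had 171.6, 163.6 and 154.9 CPM in DMSO and 163.8, 160.4 and 179.5 CPM in erastin libraries, a log2 fold change of 0.04 ± 0.08 (SE; edgeR adjusted p = 0.718). Rpl11 had 191.2, 175.4 and 164.2 CPM in DMSO and 156.4, 130.3 and 178.8 CPM in erastin libraries, a log2 fold change of -0.19 ± 0.10 (SE; edgeR adjusted p = 0.160). The groups overlapped in both genes. Rpl11 depended on 1 library: without erastin replicate 3 its log2 fold change was -0.30 and passed (edgeR adjusted p = 0.0267), and with any 1 library left out it ran from -0.30 to -0.08.

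Rps6, whose protein is the best known substrate of the S6 kinases downstream of mTOR, did not pass either. It had 166.1, 150.6 and 170.9 CPM in DMSO and 154.3, 160.1 and 171.6 CPM in erastin libraries, and its log2 fold change of -0.004 ± 0.08 (SE; edgeR adjusted p = 0.974) changed sign between scalings. Rpl4, which lines the tunnel of the nascent peptide, had 1043, 1065 and 1011 CPM in DMSO and 1040, 1133 and 1158 CPM in erastin libraries. Its log2 fold change was 0.09 ± 0.07 (SE; edgeR adjusted p = 0.275), so the member ranked after Rplp1 and Rplp0 per length did not pass in either direction.

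Members were also grouped by their place in the ribosome, with groups assigned from general knowledge. This grouping was not among the planned comparisons. It takes in members described above, among them Rpl4, Rps14 and Rps26, and also Rpl39, which is described below. Rps14 and Rps26 were picked above for their large falls, so the median of the mRNA exit side rests in part on genes chosen by their values. The 3 genes of the mRNA exit side, Rps14, Rps26 and Rps28, all fell, with a median log2 fold change of -0.60. The 3 genes of the mRNA entry side, Rps2, Rps3 and Rps9, also all fell, with a smaller median of -0.26. A further 8 genes were grouped for the tunnel of the nascent chain and its exit: Rpl4, Rpl17, Rpl19, Rpl23a, Rpl26, Rpl31, Rpl35 and Rpl39. Of these 3 fell, with a median of -0.19 and a range from -0.48 (Rpl39) to 0.09 (Rpl4). Over all tested genes 21.5% fell. Differences between these groups were not tested.

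A second gene encodes a related protein for several members, and 6 such pairs could be compared per transcript length, with counts per kb of the longest transcript. With 3 libraries against 3, an exact permutation test cannot give a p below 0.1, so no pair could pass a threshold of 0.05. Rpl22l1 made 22.2% ± 0.514 of the level of Rpl22, its RNA-binding relative, in DMSO and 16.6% ± 1.41 with erastin (SD, n = 3 per group; exact two-sided permutation p = 0.1, adjusted over 6 pairs 0.15). All 3 erastin ratios, 18.1%, 15.3% and 16.4%, lay below the DMSO ratios of 22.8%, 21.8% and 21.9%. Rpl22l1 itself had 45.9, 43.7 and 37.7 CPM in DMSO and 29.5, 25.4 and 32.8 CPM in erastin libraries, and its log2 fold change was -0.54 ± 0.12 (SE; edgeR adjusted p = 0.00266). For Rpl22, whose groups overlapped, the log2 fold change was -0.12 ± 0.09 (SE; edgeR adjusted p = 0.344).

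In 3 other pairs the ratio of the relative to the parent lay higher in every erastin library. Rpl7l1, a relative of Rpl7 with a part in ribosome assembly, made 12.4% ± 1.59 of the level of Rpl7 in DMSO and 16.1% ± 1.0 with erastin (SD, n = 3 per group; exact permutation p = 0.1, adjusted 0.15). Rpl39l, which is enriched in testis, made 3.45% ± 0.402 of Rpl39 in DMSO and 4.65% ± 0.632 with erastin (SD, n = 3 per group; exact permutation p = 0.1, adjusted 0.15). Here the parent fell: Rpl39, a short protein of the exit tunnel, had 105.9, 129.2 and 106.2 CPM in DMSO and 80.7, 84.5 and 79.8 CPM in erastin libraries, a log2 fold change of -0.48 ± 0.09 (SE; edgeR adjusted p = 0.000708). Rpl39l, at 4.55 to 5.60 CPM in all libraries, had a log2 fold change of -0.04 ± 0.27 (SE; edgeR adjusted p = 0.917). Rpl7l1 had a log2 fold change of 0.25 ± 0.10 (SE; edgeR adjusted p = 0.0567) and Rpl7 of -0.12 ± 0.07 (SE; edgeR adjusted p = 0.194), and neither passed. Rpl7l1 did pass in the higher direction in 5 of the 20 alternative fits (edgeR adjusted p from 0.0131 to 0.0489), among them the fits to total counts and without DMSO replicate 3.

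The third such pair was Rps27rt, an intronless copy of Rps27, at 3.52% ± 1.30 of Rps27 in DMSO and 7.49% ± 1.88 with erastin (SD, n = 3 per group; exact permutation p = 0.1, adjusted 0.15). Rps27l, a relative of Rps27 known as a p53 target, made 79.4% ± 4.91 and 79.8% ± 8.79 (SD, n = 3 per group; exact permutation p = 1.0), with overlapping groups. Rpl36al made 47.1% ± 12.1 of Rpl36a in DMSO and 60.4% ± 9.53 in erastin libraries, also with overlap (SD, n = 3 per group; exact permutation p = 0.2, adjusted 0.24). Rpl36a had a log2 fold change of -0.41 ± 0.13 (SE; edgeR adjusted p = 0.0153), a call lost without DMSO replicate 3 or erastin replicate 1 (adjusted p = 0.0754 and 0.0809) and with the offset for GC and coding length (adjusted p = 0.102). Rpl36al had -0.02 ± 0.13 (SE; edgeR adjusted p = 0.914). The size of these ratios depends on the length taken: per kb of the longest coding transcript, Rpl22l1 made 76.6% of Rpl22 in DMSO and 57.3% in erastin libraries.

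How far reads can tell these pairs apart is set by their sequences. The first 90 bases of the coding sequences of Rps27, its copy Rps27rt and its relative Rps27l are given from the GENCODE M21 transcripts, with bases that differ from Rps27 in capitals.
Rps27: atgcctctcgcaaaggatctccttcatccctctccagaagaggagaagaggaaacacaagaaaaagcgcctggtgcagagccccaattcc
Rps27rt: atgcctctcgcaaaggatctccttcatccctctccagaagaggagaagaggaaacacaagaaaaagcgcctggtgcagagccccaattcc
Rps27l: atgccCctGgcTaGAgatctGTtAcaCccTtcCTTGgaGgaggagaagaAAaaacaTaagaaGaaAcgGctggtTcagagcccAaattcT
Rps27rt has 0 differences from Rps27 over the whole coding sequence of 252 bases, while Rps27l has 24 in the stretch shown. The same stretch of Rpl36a and Rpl36al, with capitals for bases that differ from Rpl36a, shows an intermediate case.
Rpl36a: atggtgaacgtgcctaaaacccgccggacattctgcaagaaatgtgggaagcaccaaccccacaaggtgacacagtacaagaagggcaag
Rpl36al: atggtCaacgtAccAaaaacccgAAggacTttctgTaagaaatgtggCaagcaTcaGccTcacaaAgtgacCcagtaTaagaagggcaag
These 2 genes differ at 39 of 318 coding bases, 14 of them in the stretch shown, and are 87.7% identical. Rpl39 and Rpl39l differ at 23 of 153 coding bases. Reads inside the coding part of Rps27 and Rps27rt therefore match both genes equally, and only the untranslated ends can separate them.

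Rps27rt and Rps19bp1 were the 2 members that rose. Rps27rt (chr9:114982366-114982739, minus strand, mm10) had 84, 98 and 28 reads in the DMSO libraries and 214, 101 and 203 in the erastin libraries, or 6.35, 5.43 and 2.18 CPM against 9.96, 6.05 and 10.5 CPM. The log2 fold change was 0.92 ± 0.34 (SE; edgeR adjusted p = 0.0404). The groups overlapped, since erastin replicate 2 lay below DMSO replicate 1, and the call was lost without DMSO replicate 2, DMSO replicate 3, erastin replicate 1 or erastin replicate 3 (adjusted p from 0.0565 to 0.141) and with upper-quartile scaling (0.0523). Rps27 itself, at 257.6, 238.1 and 192.9 CPM in DMSO and 201.3, 203.3 and 230.1 CPM in erastin libraries, had a log2 fold change of -0.12 ± 0.10 (SE; edgeR adjusted p = 0.365), which was -0.23 and passed without DMSO replicate 3 (adjusted p = 0.0393).

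Rps19bp1 encodes a nucleolar protein known to bind RPS19 and the deacetylase SIRT1. It had 14.1, 15.4 and 17.7 CPM in DMSO and 22.3, 27.4 and 18.8 CPM in erastin libraries, which did not overlap. Its log2 fold change was 0.54 ± 0.17 (SE; edgeR adjusted p = 0.0169), with the call lost without DMSO replicate 1, DMSO replicate 2 or erastin replicate 2 (adjusted p = 0.0656, 0.0528 and 0.107). The other member whose erastin libraries all lay above its DMSO libraries was Rpl7l1, whose call depended on the fit as given above.

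The lowest tested member was Rpl24, with 0, 17 and 6 reads in DMSO and 16, 4 and 23 in erastin libraries, although its protein is part of every large subunit. In the M21 annotation it overlaps the gene Gm28037 on the same strand. Genes with a near-identical copy of its coding sequence held 96.9% of the reads counted on either, 2068 against 66. Its log2 fold change of 0.58 ± 0.89 (SE; edgeR adjusted p = 0.636) rests on those 66 reads. Rpl10l, a testis relative of Rpl10, had 0, 0 and 0 reads in DMSO and 2, 0 and 1 in erastin libraries. Rpl3l, the striated muscle relative of Rpl3, had 4, 0 and 0 in DMSO and 2, 4 and 1 in erastin libraries. Both were removed by the filter on low counts. Their parents fell. Rpl10, which sits near the peptidyl transferase centre, had a log2 fold change of -0.40 ± 0.08 (SE; edgeR adjusted p = 0.00105). Rpl3, which reaches towards the same centre, had -0.19 ± 0.07 (SE; edgeR adjusted p = 0.0315). The call for Rpl3 was lost in 11 of 20 alternative fits.

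The annotated start sites were searched for the TOP motif, since the starts of TOP mRNAs are what mTOR signalling reads. RefSeq's table of start sites (GRCm38.p6, 250 bases before to 50 bases from each start) held 65 members. A C followed by 4 bases that are each C or T stood exactly at the annotated start of 14 of the 65, or 21.5%, and of 3.0% of all 27025 genes of the table. A run of at least 6 bases C or T, of any mixture, lay within 30 bases of the start on the gene's strand in 49 members, or 75.4%, and in 53.5% of all genes. On the opposite strand the shares were 46.2% and 57.3%. For runs of at least 8 the shares on the gene's strand were 53.8% and 25.8%. Runs of at least 8 are also counted among those of at least 6, and the start motif can be part of either.

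Windows of 30 bases, from 12 before to 18 from the annotated start, are given to show that the run is present in members that fell and in members that did not. The genes were chosen after their values were seen, and capitals mark the longest run of C and T. The first group fell.
Rps26, chr10:128626489-128626518, minus strand: gggcaagccgccggaTCCTCTTTCgagtct
Rpl27a, chr7:109519183-109519212, plus strand: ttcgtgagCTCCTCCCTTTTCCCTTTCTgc
Rpl28, chr7:4792953-4792982, plus strand: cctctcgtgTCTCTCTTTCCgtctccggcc
Rps10, chr17:27635227-27635256, minus strand: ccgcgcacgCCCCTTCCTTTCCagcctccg
Rpl38, chr11:114668568-114668597, plus strand: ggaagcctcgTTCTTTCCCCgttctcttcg
The second group did not pass.
Rps6, chr4:86857350-86857379, minus strand: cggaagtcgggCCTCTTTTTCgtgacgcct
Rps15a, chr7:118116130-118116159, minus strand: tctttctgccaTCTTCCCTCgccggtgagt
Rpl15, chr14:18270969-18270998, minus strand: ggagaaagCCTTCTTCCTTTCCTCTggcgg
Rpl35, chr2:39005114-39005143, minus strand: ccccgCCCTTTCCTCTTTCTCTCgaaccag
The last pair is Rps27 and its copy Rps27rt, whose windows share the stretch ctttccggcggtgacga. Its first bases, ctttcc, end the marked run of Rps27. In Rps27rt they form a run as long as the marked TCCCTT, and only the first of equally long runs is in capitals.
Rps27, chr3:90213631-90213660, minus strand: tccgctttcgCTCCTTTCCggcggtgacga
Rps27rt, chr9:114982722-114982751, minus strand: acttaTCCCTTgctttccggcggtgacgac
Members with a run of at least 6 had a median log2 fold change of -0.20, with 22 of 49 lower and 1 higher. The 14 tested members of the table without such a run had a median of -0.17, with 6 lower and 1 higher. The 14 with the motif exactly at the start had a median of -0.15, with 5 lower and 1 higher. Over all tested genes 21.5% were lower and 21.6% higher. The difference between these groups was not tested.

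Ribosomal protein mRNAs are short, and in these libraries the median change with erastin was lower in genes with shorter transcripts. The median length of the longest coding transcript was 906 bp in the tested members and 3260 bp in the other tested protein-coding genes. Under 600 bp, 13 of 19 members fell, at a median of -0.35 (log2), and among 93 other protein-coding genes of that length 53.8% fell, with a median of -0.57. From 600 to 900 bp the medians were -0.21 in 22 members and -0.23 in 308 others, and the shares that fell were 45.5% and 34.4%. From 900 to 1200 bp they were -0.24 in 18 members and -0.19 in 481 others, with 9 of the members and 27.7% of the others lower. From 1200 to 2000 bp they were -0.18 in 17 members and -0.09 in 1954 others, with 35.3% and 25.4% lower. The 5 members from 2000 to 3000 bp had a median of 0.01 and 0 of them fell (edgeR; also 0 at an unadjusted p under 0.05 and 0 with DESeq2), beside a median of -0.02 in 2702 others. Of those others 22.4% fell. Of the 2 members above 3000 bp, Rps20 fell and Rps15a, at 0.11, did not pass. Among 6913 other genes of that length 20.6% fell. By this length the members' median thus lay above that of other genes under 900 bp and below it from 900 to 2000 bp. The length is that of the longest annotated coding transcript, and which transcript is expressed was not measured. In Rps15a it is 5179 bp with a coding sequence of 390 bp, and in Rps20 3706 bp with 357 bp. Genes in the same range may therefore differ in the length of their expressed mRNAs.

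**Figure D4:**
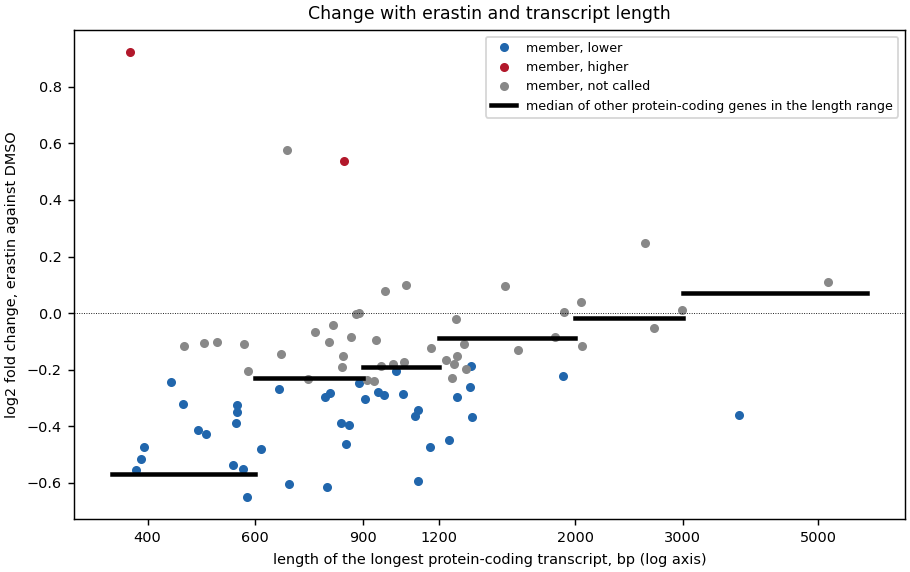
Log2 fold change with erastin (y axis) is plotted against the length of the longest protein-coding transcript in bp (x axis, log scale) for each tested member, coloured by call, with the median of the other protein-coding genes of each length range as a black bar. The bars rise from -0.57 under 600 bp to 0.07 at 3000 bp and above, and the members scatter around them.

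GC content moved with the change as well. Of 20 members whose coding transcript holds at least 55% GC, 15 fell, at a median of -0.29 (log2), and among 3115 other genes of that GC content 29.3% fell, with a median of -0.16. From 50 to 55% GC, 12 of 29 members (41.4%) and 26.5% of 3212 other genes fell, with medians of -0.19 and -0.07. Of 28 members at 45 to 50% GC, 10 fell (35.7%), with a median of -0.14. Among 3215 other genes there, 20.0% fell, with a median of 0.06. Under 45% GC, 2 of 6 members (33.3%) and 14.0% of 2909 other genes fell, with medians of -0.08 and 0.19. By level, 14 of the 19 members above 300 CPM fell, with a median of -0.28, and 43.3% of 372 other genes at that level fell, with a median of -0.13. Across 81 members, without Rps19bp1 and Rpl24, the log2 fold change had Pearson's r of 0.29 with log2 coding transcript length, -0.33 with GC content and -0.51 with the DMSO level per kb. Spearman's rho was 0.39, -0.36 and -0.41. For the log2 length of the coding sequence alone, r was 0.17 and rho 0.18. These are descriptions across genes of the same 6 libraries, and genes are not independent replicates. The DMSO level also enters the fold change. Under the offset for GC and coding length the median of the members was -0.12.

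The genome holds many processed copies of ribosomal protein genes, and reads from one can be counted on the other. A search for annotated transcripts that match at least 80% of a coding sequence at 95% identity or more found copies for 75 of the 85 members, 561 copy genes in all, of which 412 had a row in the table. For 29 members every stretch of 50 coding bases also occurs in another gene. The 412 copy genes held 94852 reads over the 6 libraries, beside 2012942 on the members. Together with further genes named as copies of a member, the copies made 0.0924% ± 0.0114 of all counts with DMSO and 0.0996% ± 0.0118 with erastin (SD, n = 3 per group), with overlapping groups. When the counts of the 412 genes were added to the members before the test, 39 members again fell and 2 rose, beside 21.7% of all genes lower, and all 39 were the ones that fell without them. Members with every 50-base stretch shared had a median log2 fold change of -0.20 with 12 of 29 lower, and members with under 50% shared had -0.20 with 8 of 15 lower. The change had r of 0.05 with the shared percent and 0.02 with the number of copies across the 81 members. The 29 members whose introns host small nucleolar RNA genes had a median of -0.20 with 13 lower, and the other 54 had -0.22 with 26 lower. Without copies added, 21.5% of all tested genes were lower.

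The 14 members that fell in every one of the 20 alternative fits were Rpl10, Rpl12, Rpl22l1, Rpl27a, Rpl28, Rpl39, Rpl41, Rplp0, Rps2, Rps14, Rps16, Rps20, Rps21 and Rps26. They come from both subunits. The share of all tested genes that fell in every fit was not computed, so the 14 have no background beside them. Rps21, a small-subunit protein, had 271.6, 263.2 and 272.7 CPM in DMSO and 200.1, 185.5 and 196.4 CPM in erastin libraries, with little spread in either group and no overlap. This gave a log2 fold change of -0.47 ± 0.07 (SE; edgeR adjusted p = 6.97e-05). Rps20, chosen like Rps21 after its values were seen, had a log2 fold change of -0.36 ± 0.09 (SE; edgeR adjusted p = 0.00380), and with a longest coding transcript of 3706 bp it was the only one of 7 tested members from 2000 bp upwards that fell.

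Of 3 ribosomal protein genes outside the naming rule, 1 fell, beside 21.5% of all tested genes. Rack1, a scaffold on the head of the small subunit, had 1534, 1528 and 1367 CPM in DMSO and 1223, 1219 and 1230 CPM in erastin libraries, a log2 fold change of -0.27 ± 0.07 (SE; edgeR adjusted p = 0.00428). Rpsa, the small-subunit protein also known as the laminin receptor, had -0.21 ± 0.09 (SE; edgeR adjusted p = 0.0675). Fau, which encodes RPS30 fused to a ubiquitin-like protein, had 0.09 ± 0.09 (SE; edgeR adjusted p = 0.438). Neither Rpsa nor Fau passed, and the groups overlapped in both. Rpsa did pass in the lower direction in 6 of the 20 alternative fits, among them DESeq2 (adjusted p = 0.0358) and the fit without erastin replicate 3 (0.00372). Fau passed in the higher direction with all 4 offsets for GC and length, at a log2 fold change of 0.38 with the offset on coding length (edgeR adjusted p = 0.00226).

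Of 17 other mRNAs known to carry the TOP motif, 10 fell, 1 (Npm1) rose and 6 did not pass, with a median log2 fold change of -0.24. The 10 include Rack1, already counted above among the ribosomal protein genes outside the rule. Npm1 is also on the list of ribosome biogenesis genes below. Eef2, the translocation factor that the stalk recruits, had 3676, 3495 and 3494 CPM in DMSO and 2239, 2352 and 2297 CPM in erastin libraries, a log2 fold change of -0.63 ± 0.06 (SE; edgeR adjusted p = 1.12e-06). Eif3f, a subunit of initiation factor 3, and Vim, the intermediate filament gene, had log2 fold changes of -0.54 (edgeR adjusted p = 0.000152) and -0.47 (2.6e-05). Translation factors as a whole, a list of 38 that shares 10 genes with the TOP list, split: 14 rose and 11 fell, with a median of 0.04. Beside both lists, 21.6% of all tested genes rose and 21.5% fell. Eif4e, the cap-binding protein, rose from 41.3 ± 4.76 to 81.5 ± 2.04 CPM (SD, n = 3 per group; a log2 fold change of 0.98, edgeR adjusted p = 1.6e-06), and Abce1, which splits ribosomes after termination, rose from 154 ± 2.76 to 247 ± 16.3 CPM (a log2 fold change of 0.69, edgeR adjusted p = 3.49e-06).

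Ribosome biogenesis factors, which process ribosomal RNA and assemble the subunits in the nucleolus, mostly rose. Of 49 tested, 36 rose and 0 fell, with a median log2 fold change of 0.64 (edgeR; 2, Nop10 and Ubtf, were lower at an unadjusted p under 0.05, 0 with DESeq2, and the same 2 passed with upper-quartile scaling). Ncl (nucleolin) rose from 308 ± 13.0 to 547 ± 18.5 CPM, Nop2, an RNA methyltransferase, from 81.7 ± 4.61 to 164 ± 6.44 CPM, and Nop14, a factor of small-subunit assembly, from 35.7 ± 4.69 to 93.7 ± 6.49 CPM (SD, n = 3 per group; the adjusted p-values of edgeR were 2.26e-07, 1.74e-07 and 1.28e-07). Of 11 regulators of ribosomal protein genes, 6 rose and 1 fell. Beside both lists, 21.6% of all tested genes rose and 21.5% fell. Myc, a transcription factor that drives ribosome production, rose from 46.7 ± 3.95 to 131 ± 14.9 CPM (SD, n = 3 per group; a log2 fold change of 1.49, edgeR adjusted p = 4.24e-08). Larp1, the TOP-binding protein, rose by 0.53 and Eif4ebp1, the inhibitor of EIF4E, by 0.57 in log2 units (adjusted p of 3.94e-05 and 7.48e-05 in edgeR).

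**Figure D5:**
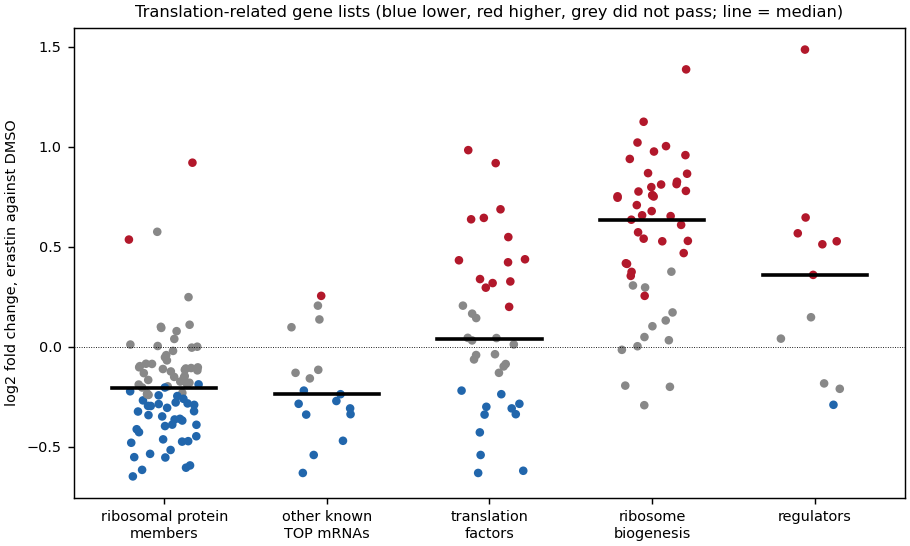
Log2 fold changes with erastin (y axis) are shown for the 83 tested ribosomal protein members and for the lists of other TOP mRNAs, translation factors, ribosome biogenesis factors and regulators, 1 point a gene (blue fell, red rose, grey did not pass), with the median as a line. The medians are -0.20, -0.24, 0.04, 0.64 and 0.36.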

How the data were processed

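The authors deposited whole-number read counts per gene, with no normalization, in 6 columns, each matched to its library by the sample number that the description of the library gives. The submitters' processing notes name HTSeq 0.9.1, SAMtools and the mouse build mm10; the aligner, the annotation release, the use of strand and the treatment of reads that match several genes are not given in the sources used here. How reads of near-identical copies were counted is therefore not known. Per the labels' protocols, RNA was fragmented by heat, amplified in 16 PCR cycles and selected for fragments of 100 to 200 bp before Ion Proton sequencing, which can change how short RNAs are recovered. Columns of per-sample values left unused numbered 0.

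Identifiers were matched without their version to GENCODE M21 (mm10), where 42462 of the 43346 rows (98.0%) had a symbol. Genes were kept by filterByExpr of edgeR 4.0.16 in R 4.3.3 (a minimum count of 10 in 3 libraries, a total of 15), scaled by TMM and tested with the quasi-likelihood test, treatment being the only term. The SE of a log2 fold change is the unshrunk coefficient divided by the square root of the F statistic. P-values were adjusted by Benjamini-Hochberg over all 14000 genes, with a threshold of 0.05. The scripts were tested on simulated data. The floor of 3 counts covers counting error only, since no molecular identifiers are described. Log2 levels per library were computed after adding 0.5 to each count. Coding transcripts and their length and GC content came from M21, and start sites from RefSeq's GRCm38.p6 table.

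Alternatives were other scalings, other filters, DESeq2 1.42.0, the replicate number as a block, GC and length offsets (mgcv 1.9.3), copies added to members and each library left out. The offset on coding transcripts, the addition of copies matched by coding sequence and the ratios per coding transcript were chosen after seeing the data. Members named in the text were the paralogs and their parents, the stalk genes, Rpl5, Rpl11, Rps6, the 6 largest rises and falls, the 3 highest and lowest levels per kb and those removed by the filter, with 3 genes of each other list by smallest p; others are said to be chosen after their values were seen or stand in a stated group. One further ribosomal protein gene outside the naming rule is not reported here. The members and lists were chosen with earlier results of these data known. Groups and replicate numbers came from the sample titles, which are the only source of a pairing.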

Additional observations from a re-analysis of the deposited data

How the results depend on the processing

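The number of members that fell was 39 and ran from 21 to 49 over the alternatives: 21 with the offset for GC and coding length, 24 with that offset and the replicate block, 29 and 32 with the offset on the longest transcript without and with the block, 49 with upper-quartile factors, 32 with total counts, 42 with DESeq2 and 24 to 43 with 1 library left out (24 without erastin replicate 1). Of all tested genes, 21.4% and 21.3% were lower with the offset on coding length without and with the block. With the offset on the longest transcript the shares were 21.7% and 21.6%. They were 24.1% with upper-quartile factors, 18.5% with total counts, 21.9% with DESeq2 and 16.8% to 20.0% with 1 library left out. Of the 39 members, 20 lost their call under the offset for GC and coding length. The number that rose was 2 and became 1 with upper-quartile factors, 4 with the GC and length offset and the replicate block, 0 at an adjusted p under 0.01 and 0 to 2 with 1 library left out. Of all tested genes, 19.0% were higher with upper-quartile factors and 19.9% with that offset and block. At an adjusted p under 0.01 the share was 15.4%, and with 1 library left out 16.8% to 20.4%.

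The members' median log2 fold change of -0.204 was -0.257 with upper-quartile factors, -0.14 with total counts, -0.149 with the GC and length offset (also when blocked), and -0.121 and -0.125 with the coding length offset without and with the block. In the same order it was -0.247, -0.129, -0.126, -0.126, -0.117 and -0.117 for large-subunit members, and for small-subunit members -0.121 and -0.125 with the coding length offset. Translation factors had medians of -0.016, 0.102, -0.048, -0.047, -0.022 and -0.021 in that order, 0.057 without a filter on low counts and 0.007 to 0.075 with 1 library left out. Ribosome biogenesis genes had 0.583, 0.701, 0.538, 0.575, 0.535 and 0.558 in that order, and 0.577 to 0.634 with 1 library left out. Known TOP mRNAs had -0.291 with upper-quartile factors, -0.173 with total counts and -0.271 to -0.188 with 1 library left out.

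Small counts in the other lists moved by 1 or 2 genes. With upper-quartile factors 2 ribosome biogenesis genes fell. TOP mRNAs that rose numbered 2 with total counts, 0 with all 4 GC and length offsets, and 0 to 1 with 1 library left out. Among the 3 ribosomal protein genes outside the naming rule, 1 rose with each of the 4 offsets, 2 fell with upper-quartile factors, without a filter, with DESeq2 and with the coding length offset and block, and 1 to 2 fell with 1 library left out. Regulators that fell numbered 0 with total counts or no filter, and 0 to 1 with 1 library left out. The summed share of members differed by -0.322 percentage points without the 4 most counted genes, beside -0.242 with them.

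Ratios of relative to parent in DMSO depend on the length. Per union of exons they were 86.9% (Rps27l), 5.46% (Rps27rt), 30.2% (Rpl22l1), 90.6% (Rpl36al), 7.82% (Rpl39l) and 15.5% (Rpl7l1). With no length they were 68.0%, 1.96%, 20.6%, 74.0%, 4.53% and 20.2%, and per longest coding transcript 54.1% (Rps27l), 76.6% (Rpl22l1), 28.0% (Rpl36al) and 9.01% (Rpl7l1).

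Members near 0 changed sign, none of them past the threshold in the reported comparison. Rps27 had 0.0802 and, blocked, 0.0775 with the GC and length offset, and 0.164 and, blocked, 0.162 on coding length. Rpl36al had 0.0477 with total counts, 0.0003 without a filter, 0.0123, 0.0059, 0.0075 and 0.0011 with the offsets, 0.0114 with copies added, and -0.0995 to 0.099 with 1 library left out (0.0564 without DMSO replicate 2). Rpl39l had 0.0251 with total counts, 0.0002 and 0.0186 without DMSO replicate 3 and erastin replicate 2, and -0.131 to 0.0186 over all such fits. Rpl5 had -0.0145 with upper-quartile factors, -0.0556, -0.0561, -0.0823 and -0.0828 with the offsets and -0.0079 without erastin replicate 3. Rps6 had 0.0604 with total counts, 0.0148 without a filter, 0.198, 0.197, 0.044 and 0.0481 with the offsets (adjusted p = 0.0454 for the GC and length offset with the block, which is past the threshold), 0.0161 and 0.0191 with copies added, and 0.0116, 0.0317, 0.029 and 0.0048 without DMSO replicate 1, DMSO replicate 3, erastin replicate 1 and erastin replicate 2, in a range from -0.0551 to 0.0317. The cause of these changes was not tested.

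With the replicate number as a block, 36 members fell and 3 rose, beside 20.8% of all tested genes lower and 21.2% higher. Libraries with the same number did not deviate together (correlations of 0.04, 0.004 and -0.006 over all tested genes), so the numbers were not taken as a pairing. Over the members alone these correlations were -0.185, -0.777 and -0.099. Their mean was -0.353, beside 0.185 for libraries with different numbers, and the cause of this was not tested. Depth limits the lowest members: Rpl10l, Rpl3l, Rpl24 and Rps27rt rest on few reads.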
